A study of Mus musculus with 4 samples.

Results

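The Wnt ligands are a family of secreted glycoproteins, and 9 of their genes, Wnt2, Wnt4, Wnt5a, Wnt5b, Wnt6, Wnt7a, Wnt7b, Wnt10a and Wnt11, were followed here in normal ureter and in ureter tumors of mice. Their probe sets were those that the annotation of the Affymetrix Mouse Genome 430 2.0 array gives to only that gene, which are 18 of the 45101 probe sets on the array and stand for 9 of 18193 genes. The study asked what part the Notch pathway plays in cancer of the urothelium, the lining epithelium of the urinary tract. Normal ureter and ureter tumor had 2 samples each, labelled biological replicates and run on 1 array apiece, all from C57Bl/6 mice of 6 to 8 weeks. The labels describe isolated ureter epithelium and doxycycline given at 3 weeks of age for 1 week to R26rtTA;teto-Cre;Ncstnf/f mice. In such mice a transactivator placed at the broadly active Rosa26 locus switches on Cre when doxycycline is present, and Cre removes the floxed part of Ncstn, which encodes the gamma-secretase subunit nicastrin. All 4 samples carry this text, and the sources used here do not give each sample's own genotype, the number of animals behind it or the deleted part of Ncstn. The p-values therefore measure the spread between these samples, which may be technical.

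Wnt proteins act over short distances on Frizzled receptors of nearby cells. With the co-receptors Lrp5 and Lrp6 they stabilise beta-catenin, which joins TCF and LEF factors on target genes, and with Ror or Ryk receptors they act on cell polarity and movement without beta-catenin. In the developing urinary tract Wnt ligands pass between epithelium and mesenchyme: Wnt7b is made by the epithelium and directs the mesenchyme that becomes smooth muscle, and in the adult bladder epithelial Sonic hedgehog induces Wnt2 and Wnt4 in the stroma.

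The tissue on the arrays was broader than its label, and the tumor arrays differed from each other, as the plot of cell type markers shows. Of 8 genes of urothelial umbrella cells, the differentiated surface layer, 7 lay lower on both tumor arrays than on both normal arrays, with a summed signal of 50250 and 79997 in normal ureter against 11451 and 17840 in the tumors. Smooth muscle markers, of which 7 of 8 were lower on both tumor arrays, summed to 57262 and 46074 against 17212 and 27191. All 7 measured fat markers were lower on both tumor arrays, with sums of 333791 and 345484 against 46924 and 16612, and 5 of them were under the filter limit on tumor replicate 2. Leukocyte markers, all 7 measured ones higher on both tumor arrays, summed to 8499 and 7730 against 89178 and 68073. Kidney tubule markers overlapped in all 8 genes and summed to 13633 and 19631 on the normal arrays, 1519 on tumor replicate 1, where 6 of 8 were under the limit, and 115150 on tumor replicate 2. Basal urothelial markers summed to 8956 and 12463 on the normal arrays, 101169 on tumor replicate 1 and 8121 on tumor replicate 2. Fibroblast markers summed to 120473 and 92142 on the normal arrays, 159762 on tumor replicate 1 and 71175 on tumor replicate 2. Ncstn was read by 1418570_at at 99.0 and 66.2 in normal ureter against 81.6 and 130.6 in the tumors, and by 1444532_at at 84.8 and 89.6 against 66.3 and 46.2, so its probe sets pointed opposite ways and checked nothing about the labels. Gapdh, whose 3' over 5' signal rises as RNA degrades, had ratios of 0.92 and 0.923 in normal ureter and 1.514 and 1.442 in the tumors, whereas the same ratio for Actb was 2.899 and 2.816 in normal ureter and 2.471 and 2.632 in the tumors. Intestinal markers, 5 of 8 under the filter limit in the mean, summed to 4167 and 7150 in normal ureter and 417 and 1768 in the tumors. Most of the normal sums came from Krt20, which is also in the umbrella cell list, at 3424.4 and 6513.8 against 171.9 and 112.7. Vil1 overlapped, at 159.4 and 230.7 against 33 and 1418. Nerve markers, 4 of 6 of them measured, summed to 1125 and 1296 against 209 and 149. Most of the normal sums came from Uchl1, at 723.9 and 907.2 against 55.4 and 70.2. Sox10 and Gfap were under the filter limit in the mean, and Gfap overlapped.

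**Figure D1:**
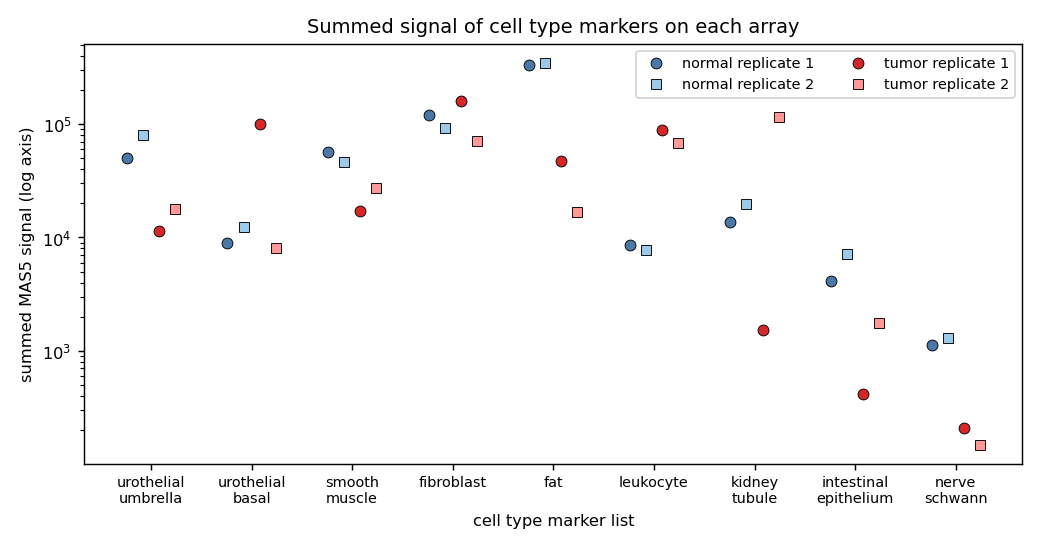
Summed MAS5 signal (log axis) of the markers of each cell type on each of the 4 arrays, blue for normal ureter and red for ureter tumor, circles for replicate 1 and squares for replicate 2. Kidney tubule markers sum to 1519 on tumor replicate 1 and 115150 on tumor replicate 2, and basal urothelial markers to 101169 and 8121.

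None of the 9 Wnt ligand genes passed the test of tumor against normal, although 4 were at least 2-fold apart at an unadjusted limma p under 0.05, as were 14.4% of all genes tested. In the limma fit over 13046 genes, which compares log2(signal + 16) between the groups at a Benjamini-Hochberg adjusted p under 0.05, 0 of 9 were called, beside 1.43% of all genes tested (0.491% higher and 0.943% lower in tumor). At an unadjusted limma p under 0.05 there were 4 of the 9, Wnt5a, Wnt6, Wnt7b and Wnt10a, beside 21.5% of all genes tested. The groups did not overlap in 5 of the 9 genes: the tumor pair was above the normal pair in 2, Wnt7b and Wnt10a (29.4% of all genes tested), and below it in 3, Wnt5a, Wnt6 and Wnt11 (27.7%). That share is close to the 57.1% of all genes tested whose groups did not overlap. The median difference of the 9 genes was -0.04 on the log2 scale, beside 0.03 for all genes tested. The smallest p that an exact two-sided permutation test of 2 arrays against 2 can give is 0.333, and none was run.

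All 9 genes had a probe set at or above the filter limit, a signal of 54.65, and 13 of the 18 probe sets did. Over all 18 probe sets, 3 were higher and 7 lower on both tumor arrays, beside 21.0% and 28.2% of all probe sets other than controls, and 49.2% of those did not overlap in either direction. Of the 7 lower ones, 4 were of Wnt5a, 2 of Wnt6 and 1 of Wnt11, so they stand for 3 genes. The limit applies to the mean over all 4 arrays on the log2 scale, so Wnt6 and Wnt11, whose tumor means of 49.8 and 49.7 lay under it, passed through their normal arrays. The Wnt5a probe set 1456976_at, with a tumor mean of 29.5, did so too. For these, and for the 5 probe sets under the limit, the size of a difference depends on the pseudocount. Signals of different probe sets are not on a common scale, so levels are compared only within a probe set.

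**Figure D2:**
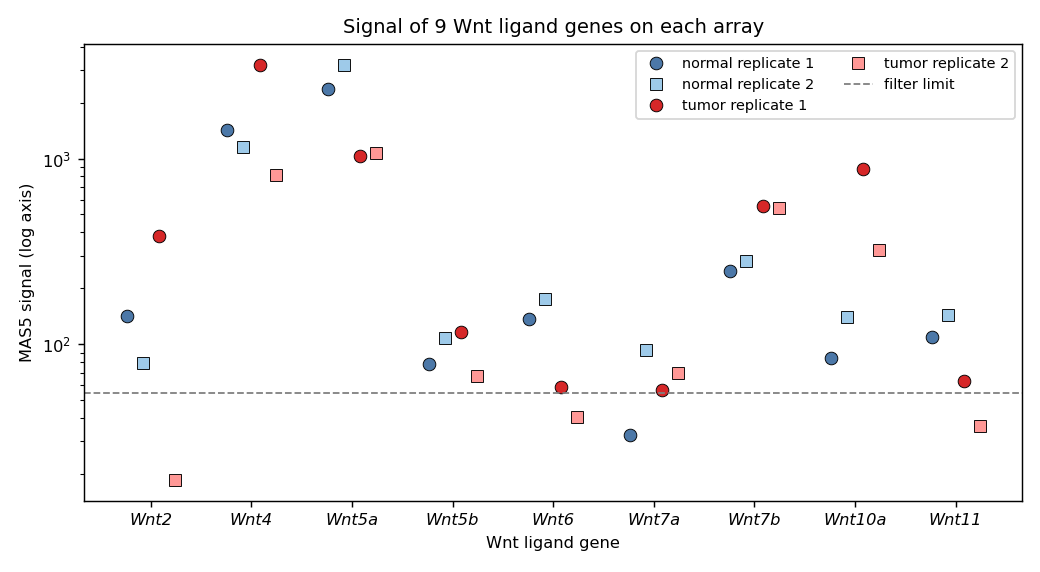
MAS5 signal (log axis) of the 9 Wnt ligand genes on the 4 arrays, each read from its probe set with the highest mean, with the filter limit of 54.65 as a dashed line. Within Wnt5a, Wnt6 and Wnt11 both red points lie below both blue ones, within Wnt7b and Wnt10a both lie above, and in Wnt2 and Wnt4 tumor replicate 1 is the highest array and tumor replicate 2 the lowest.

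Among ligands that act mostly without beta-catenin, Wnt5a, the principal ligand of Ror2 and a driver of cell migration and tissue elongation, was lower on both tumor arrays by all 4 of its probe sets. The probe set with the highest mean, 1436791_at, gave signals of 2361.8 and 3201.1 in normal ureter against 1026.6 and 1074.5 in the tumors. The tumor arrays were thus nearly equal and each was below the lower normal array. The difference was -1.38 on the log2 scale (SE 0.22, 95% interval -1.99 to -0.76, n = 2 per group), which is 2.59-fold lower, with a limma adjusted p of 0.083 that missed the threshold. The probe set 1448818_at gave 1957.9 and 2708.3 against 615.4 and 645.5, a difference of -1.84 (limma adjusted p = 0.0543 in the fit over 27022 probe sets, where 1.75% were called). The probe set 1437673_at gave 754.9 and 866.6 against 276.7 and 199.6, a difference of -1.71. The probe set 1456976_at gave 206.0 and 209.9 against 5.97 and 53.1, a difference of -2.52, and its tumor arrays were the farthest apart of the 4 probe sets. Both of its tumor signals lay under the filter limit of 54.65, so it passed through its normal arrays. The size of its difference depends on the pseudocount. Fewer cells that express a gene and less of its RNA per cell cannot be told apart in such samples. The smooth muscle, fat and umbrella cell markers were lower on the same tumor arrays, while 3 of 8 fibroblast markers were higher on both and 1 was lower, and the part of these cell types in the Wnt5a difference was not tested.

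The size of the Wnt5a difference changed little whichever tumor array was left out. Its direction could not change, because the groups did not overlap. The difference was -1.34 without tumor replicate 1 (limma adjusted p = 6.42e-05) and -1.41 without tumor replicate 2 (adjusted p = 1.91e-05), and in such a fit the spread comes from the normal arrays alone. Without normal replicate 1 or normal replicate 2 it was -1.59 (adjusted p = 0.644) and -1.16 (adjusted p = 0.722). The genes outside the lists whose profile over the 4 arrays lay nearest to that of Wnt5a, by Euclidean distance of centred log2 values, were Tbc1d31, Mgst3 and Tmod1 at distances of 0.12, 0.15 and 0.20.

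Wnt11, a ligand of polarity and cell movement that also guides branching of the ureteric bud, had signals of 109.0 and 144.0 in normal ureter against 63.3 and 36.0 in the tumors. Its groups did not overlap, and its difference was -1.14 (SE 0.42, 95% interval -2.29 to 0.01, limma adjusted p = 0.236). Without tumor replicate 1 it was -1.44, without tumor replicate 2 -0.83, without normal replicate 1 -1.32 and without normal replicate 2 -0.96. It was -0.75 with a pseudocount of 64 and -1.37 with one of 1.

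Wnt5b, the paralogue of Wnt5a, was read differently by its probe sets. The probe set 1439373_x_at, whose name marks probes that may be shared with other transcripts, gave 77.7 and 108.4 in normal ureter against 116.7 and 67.4 in the tumors, so the groups overlapped. Its difference was -0.04 (SE 0.43, 95% interval -1.21 to 1.14, limma adjusted p = 0.971), or 0.14 under quantile normalization and 0.16 with each array centred on its median. The probe set 1422602_a_at lay under the limit and was not tested, with 7.77 and 60.6 against 93.0 and 103.9. By this probe set both tumor arrays were higher, by 1.42 in the mean on the log2 scale, so no direction is given for Wnt5b.

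Wnt6 belongs to the ligands that can act through beta-catenin and is a marker of several embryonic epithelia. Its probe set 1419708_at gave 135.9 and 175.7 in normal ureter against 59.0 and 40.5 in the tumors. Both tumor arrays were lower, by -1.39 on the log2 scale (SE 0.38, 95% interval -2.43 to -0.35, n = 2 per group, limma adjusted p = 0.165). The probe set 1435980_x_at, under the limit, gave 59.2 and 74.2 against 25.7 and 42.1, again with both tumor arrays lower. The difference by 1419708_at was -1.59 without tumor replicate 1 and -1.19 without tumor replicate 2. Without normal replicate 1 it was -1.56 and without normal replicate 2 it was -1.22.

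Wnt10a, a ligand of epithelial renewal and of skin appendages, lies next to Wnt6 on mouse chromosome 1, with no protein-coding gene between them in the RefSeq table of GRCm38.p6. It had signals of 83.6 and 139.9 in normal ureter against 875.6 and 319.4 in the tumors. Both tumor arrays were higher, tumor replicate 1 more so. The difference of 2.13 (SE 0.60, 95% interval 0.49 to 3.78), which is 4.39-fold higher, was the largest in size among the 9 genes but missed the threshold with a limma adjusted p of 0.171. Without tumor replicate 1 it was 1.43, without tumor replicate 2 2.84, without normal replicate 1 1.81 and without normal replicate 2 2.46. Wnt6 was lower and Wnt10a higher on both tumor arrays, but neither passed the test, Wnt6 passed the filter through its normal arrays, and the difference between these neighbours was not tested. Basal urothelial markers also had a larger sum on tumor replicate 1 than on tumor replicate 2. Of them, Cdh3 ran the other way, at 295.9 and 382.1, and 4 of 6 were higher on both tumor arrays than on both normal arrays. The other 2, Krt5 and Trp63, were above both normal arrays on tumor replicate 1 and below both on tumor replicate 2, where Krt5 read 627.5 against 3414.5 and 5518.3 in normal ureter and Trp63 440.3 against 2446.1 and 3847.2. All 7 leukocyte markers were higher on both tumor arrays, with a larger sum on tumor replicate 1. The part of these cell types in the Wnt10a difference was not tested.

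Wnt7b, the ligand of ureter and collecting duct epithelium, had the most even values of the 9 genes. Its probe set 1420892_at gave 248.0 and 280.5 in normal ureter against 553.9 and 541.6 in the tumors. The tumor arrays differed by 0.03 on the log2 scale and both lay above the normal arrays. The difference was 1.01 (SE 0.23, 95% interval 0.37 to 1.65, n = 2 per group), which is 2.01-fold higher, with a limma adjusted p of 0.131. It was 1.00 without tumor replicate 1 (adjusted p = 0.0139) and 1.03 without tumor replicate 2 (adjusted p = 0.00844). The kidney tubule markers summed to 1519 on tumor replicate 1 and 115150 on tumor replicate 2, and their part in the Wnt7b difference was not tested. Its other probe set, 1420891_at, lay under the limit and overlapped, with 65.9 and 12.5 against 73.1 and 46.5. Of the 8 umbrella cell markers, 7 were lower on both tumor arrays.

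Wnt7a, the close paralogue of Wnt7b, had 1 probe set just above the limit and 2 under it, and in all 3 the groups overlapped. The probe set 1447647_at gave 32.4 and 93.4 in normal ureter against 56.4 and 69.5 in the tumors. Its difference was 0.11 (SE 0.55, 95% interval -1.41 to 1.63, limma adjusted p = 0.928), an interval that holds a 2-fold difference in either direction. The probe sets 1423367_at and 1458334_at, both under the limit, read from 2.03 to 81.6 and from 13.0 to 34.7 over the 4 arrays.

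**Figure D3:**
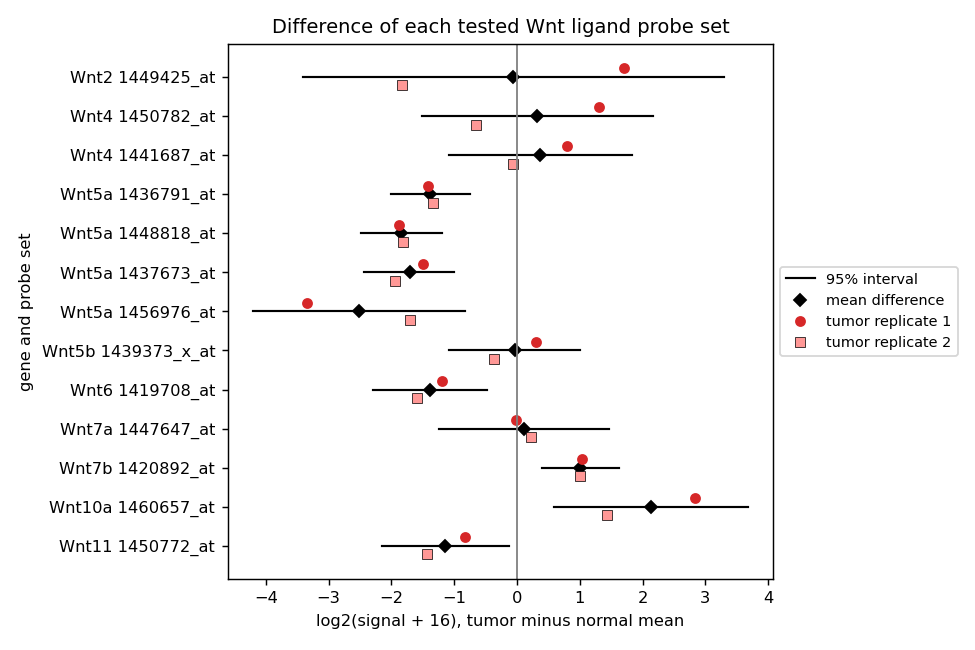
Difference between tumor and normal in log2(signal + 16) for the 13 Wnt ligand probe sets at or above the filter limit, with the mean as a diamond, its 95% interval from the limma fit over 27022 probe sets as a line, and each tumor array against the normal mean as a coloured point. The 4 Wnt5a probe sets lie between -2.52 and -1.38, and the points of Wnt2 and Wnt4 stand on opposite sides of 0 in 1449425_at and 1450782_at.

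For Wnt2, and for Wnt4 by its probe set with the highest mean, the tumor arrays lay on either side of the normal ones. Wnt2, a stromal ligand that acts through beta-catenin, had signals of 142.0 and 79.0 on the normal arrays, 384.4 on tumor replicate 1 and 18.5 on tumor replicate 2. The tumor arrays differed by 3.54 on the log2 scale and the normal arrays by 0.73. The tumor arrays were at least 2-fold apart in 23.2% of all genes tested and at least 4-fold apart in 8.52%, and the normal arrays at least 2-fold apart in 3.52%. The mean difference was -0.06 (SE 1.30, 95% interval -3.63 to 3.51, limma adjusted p = 0.986), and it turned to 0.03 under quantile normalization, 0.14 with median centring and 0.16 with a pseudocount of 64. Without tumor replicate 1 it was -1.83 (adjusted p = 0.0288) and without tumor replicate 2 it was 1.71 (adjusted p = 0.00309). With 1 tumor array left, assumed to vary like the normal arrays, 32.9% of all genes tested passed without tumor replicate 1 and 42.2% without tumor replicate 2, among them 7 and 6 of the 9 Wnt ligands.

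Wnt4, which acts in kidney tubule formation and in stroma, ran the same way by its probe set with the highest mean only. The probe set 1450782_at gave 1422.3 and 1157.5 on the normal arrays, 3186.7 on tumor replicate 1 and 811.0 on tumor replicate 2. Its difference was 0.32 (SE 0.71, 95% interval -1.62 to 2.27, limma adjusted p = 0.827), with -0.65 without tumor replicate 1 (adjusted p = 0.024) and 1.30 without tumor replicate 2 (adjusted p = 2.78e-05). The probe set 1441687_at gave 883.2 and 365.1 in normal ureter against 1004.8 and 544.4 in the tumors. By this probe set tumor replicate 1 was again the highest of the 4 arrays, but tumor replicate 2 lay between the normal arrays. Fibroblast markers were higher in sum on tumor replicate 1, at 159762, than on tumor replicate 2, at 71175, as were basal urothelial markers, while kidney tubule markers were lower there. The part of these cell types in the Wnt2 and Wnt4 values was not tested.

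**Figure D4:**
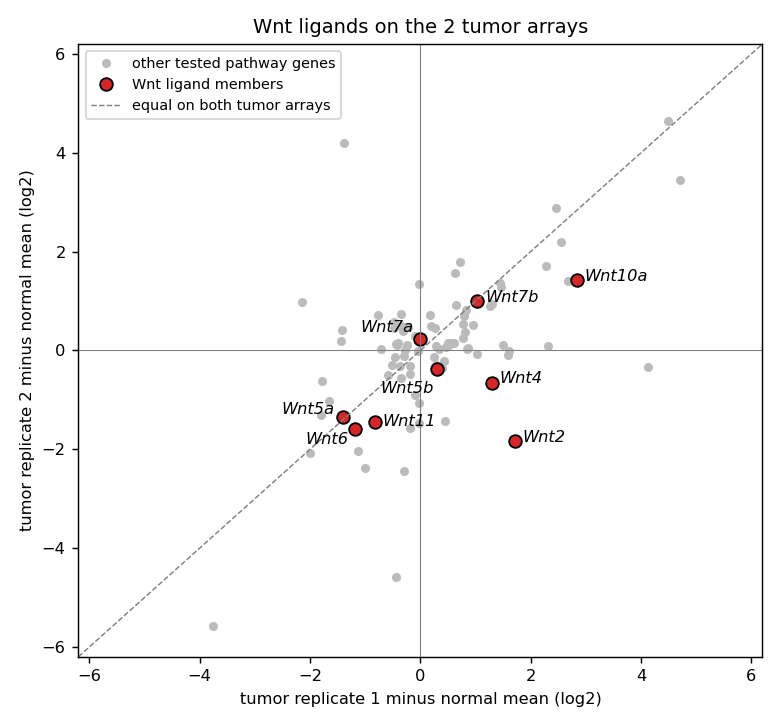
Each tumor array against the normal mean in log2(signal + 16), tumor replicate 1 on the x axis and tumor replicate 2 on the y axis, for the 9 Wnt ligand genes in red and other tested genes of the pathway lists in grey. Wnt7b at 1.03 and 1.00 and Wnt5a at -1.41 and -1.34 lie on the dashed line of equality, and Wnt2 at 1.71 and -1.83 is the farthest from it among the 9.

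The RefSeq table of promoters (GRCm38.p6) held windows for 6 of the 9 genes, and the 250 bases before an annotated start are shown for Wnt6 and Wnt11 (the more upstream of its 2 starts), lower on both tumor arrays, and for Wnt2 and Wnt4, the members farthest apart between the tumor arrays among those whose groups overlapped. Those of Wnt5b and Wnt7a are not shown. Capitals mark matches on either strand to the GC box GGGCGG, which SP factors bind, and to the TCF and LEF core CTTTGAT. No match to GACCACCCA, the motif of the Hedgehog effector GLI, stood in any of the 9 windows of members. In Wnt11 a GC box and the core lie side by side, so that GGGCGGATCAAAG is a single run.
Wnt6, chr1:74771642-74771891, plus strand: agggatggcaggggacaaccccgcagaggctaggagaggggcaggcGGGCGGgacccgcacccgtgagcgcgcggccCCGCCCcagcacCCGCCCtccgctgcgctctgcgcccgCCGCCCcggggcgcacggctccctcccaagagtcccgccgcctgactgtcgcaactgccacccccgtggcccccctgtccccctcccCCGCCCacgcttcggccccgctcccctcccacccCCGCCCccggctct
Wnt11, chr7:98834862-98835111, plus strand: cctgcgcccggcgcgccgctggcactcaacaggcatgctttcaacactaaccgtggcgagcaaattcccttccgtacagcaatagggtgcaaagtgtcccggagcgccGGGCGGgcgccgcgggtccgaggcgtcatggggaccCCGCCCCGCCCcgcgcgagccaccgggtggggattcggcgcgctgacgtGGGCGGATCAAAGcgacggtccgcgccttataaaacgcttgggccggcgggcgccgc
Wnt2, chr6:18030446-18030695, minus strand: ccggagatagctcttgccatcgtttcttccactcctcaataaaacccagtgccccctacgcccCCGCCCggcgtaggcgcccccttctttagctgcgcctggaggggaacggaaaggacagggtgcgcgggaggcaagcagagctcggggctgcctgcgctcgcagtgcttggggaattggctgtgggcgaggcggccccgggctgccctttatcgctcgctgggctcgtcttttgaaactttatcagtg
Wnt4, chr4:137277385-137277634, plus strand: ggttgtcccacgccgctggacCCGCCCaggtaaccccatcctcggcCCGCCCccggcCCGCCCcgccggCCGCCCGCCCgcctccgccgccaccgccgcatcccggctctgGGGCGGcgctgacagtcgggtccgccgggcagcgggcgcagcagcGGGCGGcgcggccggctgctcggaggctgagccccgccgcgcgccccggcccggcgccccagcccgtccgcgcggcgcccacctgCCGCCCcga
The GC box was found 6 times in the Wnt6 window, 4 times in that of Wnt11, 1 time in that of Wnt2 and 8 times in that of Wnt4, and at least once in 32.7% of 32851 windows of that length. The TCF and LEF core stood once in the Wnt11 window and in none of the other 3 shown, once in 1 of the 3 Wnt5b windows, and in 3.21% of all windows. The GLI motif was in 0.225% of all windows. The windows of Wnt6 and Wnt4 were 79.6% and 85.2% G and C, those of Wnt11 and Wnt2 70.8% and 63.6%, beside a median of 52.4%. A match is a description of the sequence and no site.

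Genes that release or receive Wnt ligands gave 0 calls among 6 genes of secretion, 10 tested Frizzled and Lrp receptors and 12 Ror, Ryk and polarity genes, with medians of -0.28, 0.19 and 0.45 on the log2 scale, as the plot of pathway lists shows. Wls, the carrier that takes Wnt proteins to the cell surface, read 2892.3 and 3413.5 in normal ureter against 7777.8 and 6041.6 in the tumors, a difference of 1.12 (SE 0.22, limma adjusted p = 0.108). Porcn, which attaches the lipid that Wnt proteins need, had a difference of -0.45 (adjusted p = 0.532). Vps35 and Snx3, which recycle Wls, differed by -0.35 and -0.21, and both were lower on both tumor arrays. The receptor Fzd1 had a difference of 1.38 (SE 0.18, adjusted p = 0.063), with both tumor arrays higher, as they were for Fzd10 at 1.08 and Fzd7 at 0.37, and Lrp6 one of -0.13. Of the 12 receptors and polarity genes that act without beta-catenin, 8 were higher on both tumor arrays and 0 lower on both, beside 29.4% and 27.7% of all genes tested. Celsr1, a polarity cadherin, read 71.8 and 30.1 against 1639.8 and 676.1, a difference of 4.07 (SE 0.60, adjusted p = 0.0734), and the pseudokinase receptor Ptk7 had one of 1.99 (adjusted p = 0.114). The normal means of Celsr1 and Fzd10, 50.9 and 50.5, lay under the filter limit, so the size of these differences depends on the pseudocount. Ror2, the receptor of Wnt5a, had a difference of 0.65 (adjusted p = 0.376) and Ror1 one of 0.75 (adjusted p = 0.196). Daam1, an actin regulator downstream of Frizzled, overlapped with a difference of -0.14.

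Secreted Wnt antagonists were the ligand-facing genes with calls: 2 of 9 tested genes rose and 0 fell, beside 0.491% and 0.943% of all genes tested. Of the 9, 3 were higher on both tumor arrays and 0 lower, beside 29.4% and 27.7% of all genes tested. The other 6 overlapped. Frzb, which binds Wnt proteins, rose by 4.57 (SE 0.28, limma adjusted p = 0.0369) and Dkk2, a ligand of Lrp5 and Lrp6, rose by 2.37 (SE 0.23, adjusted p = 0.044). Leaving out normal replicate 1 or normal replicate 2 ended both calls (adjusted p = 0.643 and 0.655 for each gene), as did a fit with no intensity trend (0.0603 for Frzb and 0.0638 for Dkk2). The mean over probe sets ended that of Frzb (0.0576) and median centring that of Dkk2 (0.0527). Dkk3, a divergent Dickkopf protein, had a difference of 2.05 (adjusted p = 0.145). Sfrp4, like Wnt2 and Wnt4, was highest on tumor replicate 1, at 16975.1 beside 752.8 on tumor replicate 2 and 907.6 and 1011.4 on the normal arrays. R-spondins, which raise the number of Frizzled receptors, and their Lgr receptors gave 0 calls among 7 tested genes. Rspo3 read 388.3 and 215.0 in normal ureter against 60.2 and 56.3 in the tumors, a difference of -2.04 (SE 0.41, adjusted p = 0.112), and Rspo1 had one of -1.34 (adjusted p = 0.176). The R-spondin receptor Lgr4 overlapped at 0.19, and Znrf3, the ubiquitin ligase that removes Frizzled, was higher on both tumor arrays by 0.35.

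Targets of beta-catenin gave 0 calls among 12 tested genes, with a median of 0.42 beside 0.03 for all genes tested, and 6 of the 12 were higher on both tumor arrays and 1 lower, beside 29.4% and 27.7% of all genes tested. Axin2, the most general feedback target, read 227.3 and 179.2 in normal ureter against 247.0 and 283.3 in the tumors, a difference of 0.36 (SE 0.29, 95% interval -0.43 to 1.16, limma adjusted p = 0.521). Myc had a difference of 1.40 (adjusted p = 0.0843), Ccnd1, the G1 cyclin, one of 1.10 (adjusted p = 0.22), Nkd2, a feedback inhibitor, one of 0.78 (adjusted p = 0.218), and Apcdd1, an inhibitor of the pathway, one of -1.59 (adjusted p = 0.131). The core of the pathway gave 0 calls among 13 tested genes with a median of 0.04, and Ctnnb1, beta-catenin itself, had a difference of -0.33 (adjusted p = 0.482). The co-activators Bcl9 and Pygo2 differed by -1.20 and 0.52, and the kinase Gsk3a by -0.41 (adjusted p = 0.295, 0.343 and 0.305).

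Hedgehog genes, which control stromal Wnt ligands, gave 0 calls among 7 tested genes with a median of -0.54. Shh, the epithelial ligand, read 8592.0 and 13234.5 in normal ureter against 770.7 and 207.2 in the tumors, a difference of -4.67 (SE 0.69, limma adjusted p = 0.0729), and its target Ptch1 had one of -0.54 (adjusted p = 0.195). Smo, the signal transducer, had a difference of 0.82 (adjusted p = 0.119) and Hhip, an inhibitor and target, one of -1.56 (adjusted p = 0.154). The tumor mean of Hhip, 30.2, lay under the filter limit. Shh was lower on both tumor arrays. Wnt2, and Wnt4 by 1450782_at, were lower on tumor replicate 2 and higher on tumor replicate 1. A link between Shh and these ligands was not tested. Of 8 factors of the ureter mesenchyme, in which Wnt signals from the epithelium act, 1 rose, 0 fell and 7 did not pass, with a median of -0.33. Aldh1a2, an enzyme of retinoic acid synthesis, rose by 2.67 (SE 0.28, adjusted p = 0.0479), a call that ended without either normal array (0.643 and 0.655), with median centring (0.0501), with no filter (0.0577), with the mean over probe sets (0.051) and with no intensity trend (0.0638). Tbx18, a factor of the mesenchyme around the ureter, read 1314.2 and 1088.5 against 878.3 and 34.3, a difference of -2.51 (adjusted p = 0.394). Bmp4, a signal for smooth muscle formation, differed by 1.25, Myocd, the smooth muscle coactivator, by -1.68 (adjusted p = 0.207 for each), and Tbx3 by -0.49 with overlap. Lrp6, Ror2, Axin2, Ptch1 and Tbx18 were chosen for description after their values were seen.

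**Figure D5:**
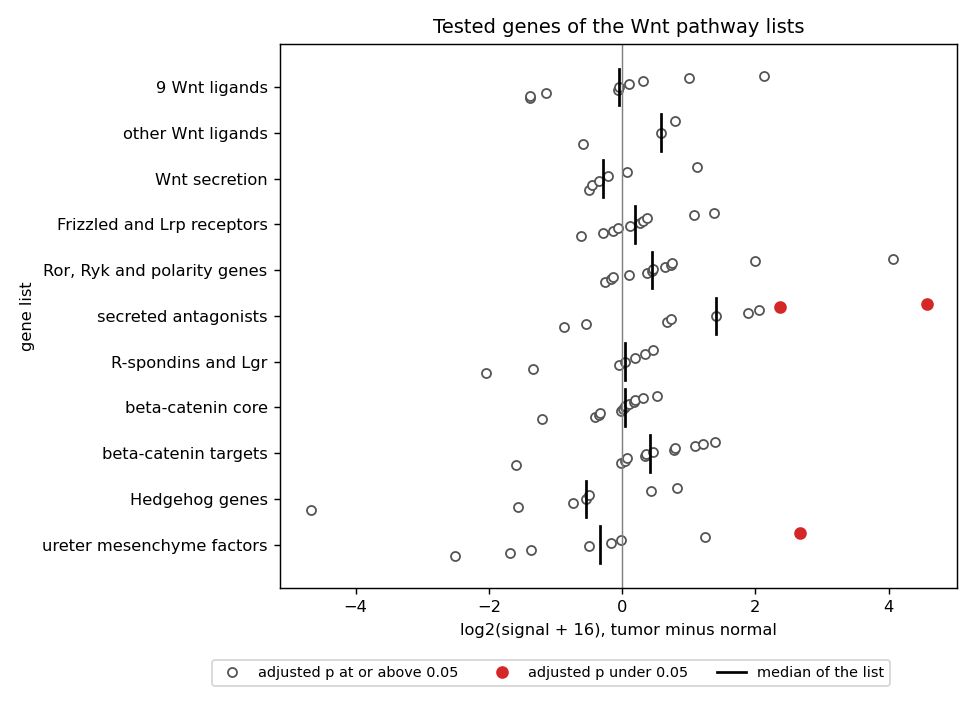
Difference between tumor and normal in log2(signal + 16) for each tested gene of the 11 pathway lists, with filled red points for a limma adjusted p under 0.05 and a black bar at each list's median. The 9 Wnt ligands hold no filled point, and the filled points are Frzb at 4.57, Dkk2 at 2.37 and Aldh1a2 at 2.67.

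Of the 10 other Wnt ligand genes on the array, 7 lay under the limit (Wnt1, Wnt2b, Wnt3, Wnt8a, Wnt8b, Wnt10b and Wnt16) and 0 of the other 3 passed the test. Wnt9b, which with Wnt7b is a ligand of the embryonic ureter epithelium, read 235.8 and 32.1 in normal ureter against 8.88 and 199.8 in the tumors, so that it gave no direction. Wnt9a was higher on both tumor arrays, at 227.2 and 187.9 against 372.8 and 272.1, differing by 0.59 (SE 0.31, limma adjusted p = 0.352). Wnt3a read 7.13 and 117.9 in normal ureter against 152.5 and 38.9 in the tumors.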

How the data were processed

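RNA of 4 samples was measured on 1-colour arrays, 1 array per sample. Per the submitters' processing notes the authors made the deposited intensity values with MAS5; the sources used here give no version, detection calls or filters. The trimmed mean, leaving out 2% of probe sets at each end, was 500.0 on each array, so a signal is relative to the rest of its array. Precision is limited by having 2 arrays per group. Of 45101 probe sets, 64 controls were left out. Of the others, 34945 had 1 symbol in the platform annotation (34741 matched to a newer gene table), 932 had several and 9160 had none here.

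Signals were taken as log2(signal + 16), which understates changes of dim genes. Each gene was read from its probe set with the highest mean log2 value, and genes at or above the 40th percentile, a signal of 54.65, were tested with limma 3.58.1 in R 4.3.3 (intensity trend in the prior variance, two-sided, Benjamini-Hochberg over 13046 genes, 2 residual and 2.11 prior degrees of freedom). Intervals are at 95%. The procedure was tested on simulated data. Members and lists were chosen with earlier results of these data known. Named are the 9 members with all their probe sets, from each pathway list up to 3 genes with the smallest p and the brightest gene, and the 3 nearest profiles of the member with the smallest p, also the one picked by highest signal. Alternatives were other pseudocounts, scalings, filters, probe set rules and priors, the replicate number as a block, a 2-fold rule and each array left out. Figures were drawn with matplotlib 3.10.9.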

Additional observations from a re-analysis of the deposited data

How the results depend on the processing

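For Wnt5a, Wnt6, Wnt7b, Wnt10a and Wnt11 the groups did not overlap. Leaving out an array or changing the pseudocount therefore could not reverse their differences. Changes of filter, prior, block or calling rule, and every probe set as its own row, left the differences as they were. Under quantile normalization and median centring, which could have reversed them, the differences of these genes kept their direction, as with the mean over probe sets. That of Wnt2 turned to 0.16 with a pseudocount of 64, 0.03 under quantile normalization, 0.14 with median centring, and, with an array left out, ran from -1.83 to 1.71 (0.31 without normal replicate 1, 1.71 without tumor replicate 2). That of Wnt5b turned to 0.14 under quantile normalization, 0.16 with median centring, 0.69 as the mean of its probe sets, and, with an array left out, ran from -0.37 to 0.30 (0.17 without normal replicate 2, 0.30 without tumor replicate 2). Wnt7a ran from -0.48 without normal replicate 1 to 0.70 without normal replicate 2, with -0.01 without tumor replicate 2, and Wnt4 from -0.65 without tumor replicate 1 to 1.30 without tumor replicate 2. At the 60th percentile 4 of the 9 genes were tested. The count of Wnt ligand genes past the test was 0 of 9 and ran from 0 to 7 with an array left out: 0 without either normal array, 7 without tumor replicate 1 (32.9% of all genes passed) and 6 without tumor replicate 2 (42.2%). Asking for 2-fold and an unadjusted p under 0.05 gave 4, beside 14.4% of all genes. Over all genes the count of 187 became 35 with median centring, 104 with the mean of probe sets, 473 with every probe set, 2 with no intensity trend (2739 at an unadjusted p under 0.05), 1880 with the 2-fold rule, and 0 to 5502 with an array left out, and the causes were not tested. At an unadjusted limma p under 0.05 there were 884 genes without normal replicate 1 and 889 without normal replicate 2. Median centring moved the median of all genes from 0.03 to 0.22. With the replicate number as a block 0 genes passed the limma test (2253 at an unadjusted p under 0.05), and 0 of 9 Wnt ligands did (3 at an unadjusted p under 0.05). Deviations of same-numbered arrays correlated at 0.039 across genes, so the numbers were not taken to pair the samples.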
